A study of Mus musculus with 2 samples.

Results

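The genes described here encode the factors that start and elongate cytosolic protein synthesis in mouse small intestinal epithelium. They were chosen by name: every gene whose array symbol begins with Eif and a digit, or with Eef1 or Eef2, without the Eif2ak kinases. The array annotation held 48 such symbols. Of these, 4 were older names of the Argonaute genes, Eif2c1 to Eif2c4, which act in RNA interference and were kept apart. The remaining 44 genes, measured by 46 probes, stood among 16390 genes named on the arrays. All 11 subunits of eIF3 were listed under older names with an s before the number. Another 10 genes now named for these factors carried other symbols on the arrays, such as Eif4h and Eif6, and were outside the rule, so their values are given separately.

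All 3 populations share 1 genotype, with the alleles Atoh1-crePGR, Lgr5-EGFP-IRES-creERT2 and Rosa26-tdTomato. EGFP reports Lgr5, the receptor gene that marks crypt base columnar stem cells. The Cre recombinase follows Atoh1, the transcription factor of the secretory lineage, and needs RU486, which was injected on 5 consecutive days; tdTomato then marks recombined cells and all of their descendants. At 20 days after recombination, epithelial cells pooled from 4 mice were sorted into EGFP without tdTomato (EGFP only), both proteins (double positive) and tdTomato without EGFP (tdTomato only). The EGFP-only RNA was labelled with Cy5 on both arrays, and the double-positive RNA (first array) or the tdTomato-only RNA (second array) with Cy3. The ages of the mice are not given in the sources used here.

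Translation of most messenger RNAs begins when eIF4F, made of the cap-binding protein eIF4E, the scaffold eIF4G and the RNA helicase eIF4A, prepares the capped end of the message. The small ribosomal subunit, bound by eIF3 and by eIF2 with initiator methionyl-tRNA, then scans to the start codon, where eIF1, eIF1A, eIF5 and eIF5B control recognition of the codon and joining of the large subunit. Elongation is driven by eEF1A, which delivers aminoacyl-tRNA, by the eEF1B complex, which recharges eEF1A with GTP, and by eEF2, which moves the ribosome along. Many of these messages, like those of the ribosomal proteins, carry a 5′ terminal oligopyrimidine tract through which mTORC1 controls their translation. The intestinal crypt is a tissue of rapid division, and its Paneth and goblet cells secrete much protein.

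Each comparison with EGFP only rests on 1 array and each population on 1 biological replicate, so no ratio has a replicate error and no test was made. The only repeated measurement was the EGFP-only channel. Over 45 probes of the translation factors, the log2 level differed between the arrays with an SD of 0.13, against 0.083 over 15639 probes, and no translation factor probe differed by 1.5-fold. This is technical spread alone, and whether it takes in separate extraction or labelling is not stated in the sources used here. Lgr5 had a log2 ratio of 0.26 in double positive over EGFP only (−0.26 with median centring without loess) and of −0.89 in tdTomato only. Olfm4, another stem cell gene, had −1.56 and −2.37. Of 9 measured stem cell markers, Olfm4 was the 1 that passed 2-fold below EGFP only in double positive (0.340% of all genes). The median of these markers there was −0.12. In tdTomato only 4 of 8 passed 2-fold below (1.19% of all genes), with a median of −0.95. In double positive, 8 of 8 measured Paneth genes and 7 of 9 goblet genes passed 2-fold above EGFP only (5.10% of all genes). In tdTomato only, 7 of 8 and 7 of 8 did (6.15%). Of 7 enterocyte genes, 5 and 6 passed 2-fold above (5.10% and 6.15%). Of 7 enteroendocrine genes, 6 in double positive (0.340%) and 1 in tdTomato only (1.19%) passed 2-fold below. All 10 measured lymphocyte genes of 11 on the array passed 2-fold above in double positive (5.10%) and 6 in tdTomato only (6.15%). The summed spot medians of the lymphocyte genes were 2367 and 2301 in EGFP only, 13650 in double positive and 6415 in tdTomato only. Cd3e was below background in all channels. Of the measured myeloid genes, 3 of 6 passed 2-fold above in double positive (5.10%) and 1 of 5 in tdTomato only (6.15%). Of the tuft and the fibroblast or endothelial genes, 0 passed 2-fold either way. The part of these cells in the values below was not tested, and in such pooled RNA fewer cells of a type and less RNA per cell cannot be told apart.

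After loess, most translation factor genes differed little between the populations. In the double-positive population Eef1a1 and Eif4b were at least 2-fold lower than in EGFP only and Eif4g2 was at least 2-fold higher, the last not so with median centring, quantile normalization or in the authors' deposited ratios. In the tdTomato-only population Eef1a1 was again at least 2-fold lower, Eif4b just under that size, and no member was 2-fold higher. Between the tdTomato-only and double-positive populations no member differed by 1.5-fold (1.80% of all genes were that much lower and 2.67% higher), and 34 of 43 lay below 0 (54.3% of all genes). With median centring in place of loess, more members were at least 1.5-fold lower than EGFP only. They were 19 of 44 in double positive (22.3% of all genes) and 23 of 43 in tdTomato only (23.5%).

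All 44 members were above background in both channels of the first array and 43 in both of the second, where Eif5a2 was not well above background in EGFP only. In double positive over EGFP only, 2 of 44 members were at least 2-fold lower, where 0.340% of all 11774 genes measured were, and 1 was at least 2-fold higher, where 5.10% of all genes were. At 1.5-fold, 3 members were lower (4.12% of all genes) and 8 were higher (10.7%). The members' median log2 ratio was −0.04, beside −0.01 over all genes, and 24 of 44 lay below 0 (51.1% of all genes). After loess, the lower end was thus held by a few genes, while the middle of the members lay where all genes lay. With median centring in place of loess it did not, at −0.51 beside −0.21 over all genes.

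In tdTomato only over EGFP only, 1 of 43 members was at least 2-fold lower (1.19% of 11381 genes) and 0 were 2-fold higher (6.15%). At 1.5-fold, 3 were lower (6.66%) and 1 was higher (12.5%). The median log2 ratio of the members was −0.16 beside −0.01 over all genes, with 28 of 43 below 0 (51.8% of all genes). Both comparisons share the EGFP-only population, so their likeness is no separate support for either.

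**Figure D1:**
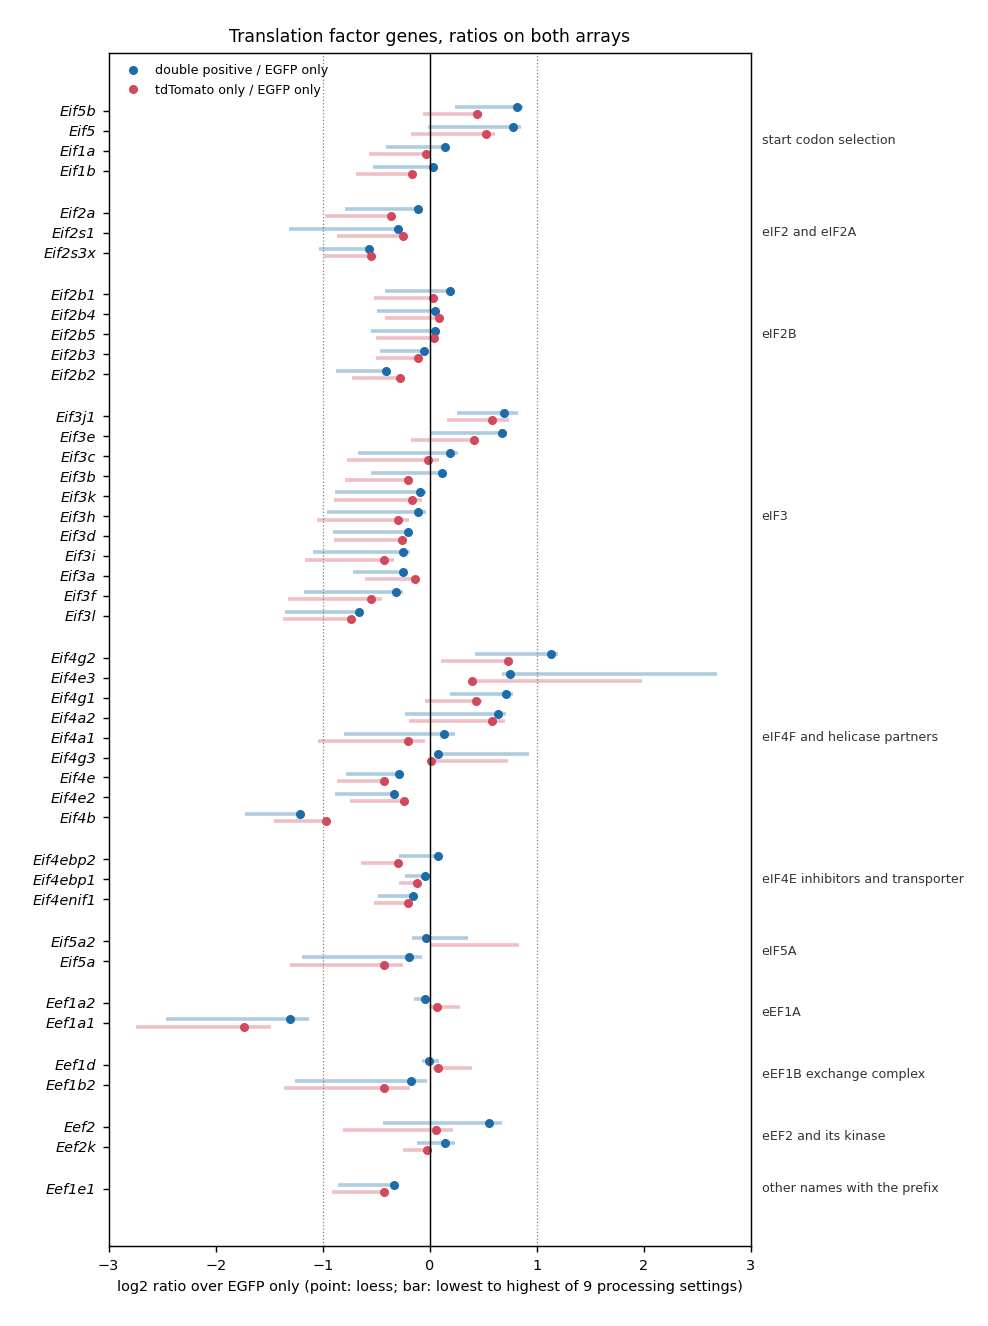
Log2 ratio of each translation factor gene over EGFP only, grouped by role; points are loess-normalized values of the double-positive (blue) and tdTomato-only (red) arrays, bars run from the lowest to the highest of 9 processing settings, and dotted lines mark 2-fold. Eef1a1 and Eif4b lie lowest on both arrays and Eif4g2 lies highest among the blue points, at 1.14; long bars mark bright genes, such as Eef1a1, and dim ones, such as Eif4e3.

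The size of these ratios, and the sign of some, depended on how the arrays were centred. Bright spots were relatively weaker in Cy3 on both arrays, and the loess curve removes that slope. Over the members it added between −0.06 and 1.16 to the log2 ratio of the double-positive array and between −0.04 and 1.01 on the other, where over all genes its median was 0.32 and 0.31. With median centring in place of loess, the all-gene median was −0.21 on both arrays and the members' medians −0.51 and −0.64. In the authors' deposited ratios, which were centred without a curve, the members' medians were −0.16 and −0.48. The counts of members moved with the centring as well. With median centring, 8 members were 2-fold lower (6.29% of all genes) and 0 higher (3.09%) in double positive over EGFP only, and 9 were lower (7.47%) and 0 higher (3.58%) in tdTomato only. At 1.5-fold they were 19 lower (22.3%) and 1 higher (5.50%), and 23 lower (23.5%) and 0 higher (6.41%). In the authors' deposited ratios, 3 were 2-fold lower (3.50%) and 1 higher (12.2%) in double positive, and 6 lower (6.92%) and 1 higher (12.8%) in tdTomato only. At 1.5-fold the deposited ratios held 10 lower (15.1%) and 6 higher (22.0%), and 16 lower (20.0%) and 3 higher (22.5%). Without the curve the members thus lay lower as a group, and relative to all genes as well. No dyes were swapped, so the slope and a shared difference of the Cy3 populations cannot be told apart. Across 9 settings, 22 members lay below 0 in double positive over EGFP only in every one, 7 lay above 0 in every one and 15 changed sign. In the tdTomato-only comparison the counts were 27, 5 and 11. Settings that change only the limit on dim probes or the choice of probe repeat the loess value of a measured single-probe gene. Those settings could thus not change its sign. The share of all genes that kept their sign was not counted.

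**Figure D2:**
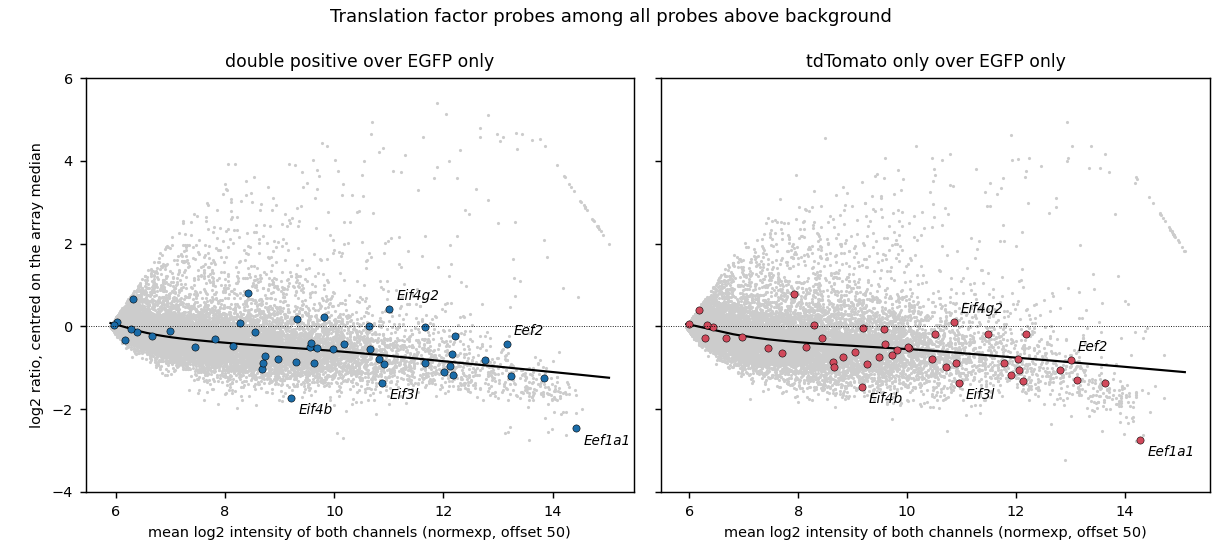
Log2 ratio over EGFP only without loess (centred on each array's median) against the mean log2 intensity of both channels, for all probes above background (grey) and translation factor probes (coloured); the black line is the loess curve. Eef1a1, at −2.47 and −2.74 before the curve is removed, lies below the curve on both arrays, as do Eif4b and Eif3l, while Eif4g2 lies above it; Eef2 lies below 0 but not below the curve.

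Because several of these messages are classical terminal oligopyrimidine messages, the starts of the members were read from RefSeq (GRCm38.p6). The tract searched for was a C followed by at least 4 bases that are each C or T, on the strand of the gene only, whose first base lies at most 10 bases before or after the annotated first base. A window was found by symbol for 35 of the 44 members, and 12 of the 35 (34.3%) held a tract at 1 or more of their starts, beside 34.4% of 27025 genes. The members with a tract had a median log2 ratio of −0.33 in double positive over EGFP only and those without 0.05, and −0.35 and −0.08 in tdTomato only. In tdTomato only over double positive the order was the other way, at −0.06 with and −0.17 without a tract. Eef2 and Eef1b2, at 0.56 and −0.18 in double positive, had no tract by this search and counted among those without. The window of Eef2 did end in such a stretch, ctctt, but it began more than 10 bases after the annotated first base. The limit alone thus placed Eef2 among those without. The window of Eef1b2 showed no such stretch. Over all genes the medians were −0.01 with and −0.01 without a tract in the double-positive comparison. With the start of the tract allowed within 5 bases, 9 of 35 members (25.7%) and 21.2% of all genes held one, and the members' medians were −0.32 with and −0.00 without a tract in double positive and −0.27 and −0.16 in tdTomato only. These are descriptions of letters near annotated starts, and the annotated start may not be the one these cells used. Within 10 bases the share of members with a tract was that of all genes, so the search does not single out terminal oligopyrimidine messages. The medians with and without a tract therefore cannot be read as those of such messages and of others.

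The windows of the 8 members that passed 1.5-fold on either array and had one follow, 10 bases before to 20 after the annotated start, 5′ to 3′ on the strand of the gene, with the tract in capitals where there was one. The first 3 were lower than EGFP only and the other 5 higher.
Eef1a1, chr9:78481705-78481734, minus strand: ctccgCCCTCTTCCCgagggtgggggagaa
Eif4b, chr15:102073763-102073792, plus strand: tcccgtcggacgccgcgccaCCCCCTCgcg
Eif3l, chr15:79075213-79075242, plus strand: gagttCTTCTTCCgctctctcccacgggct
Eif4g1, chr16:20672717-20672746, plus strand: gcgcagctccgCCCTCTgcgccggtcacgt
Eif3j1, chr2:122028570-122028599, plus strand: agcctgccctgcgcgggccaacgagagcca
Eif4a2, chr16:23107458-23107487, plus strand: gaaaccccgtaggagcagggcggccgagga
Eif5, chr12:111538091-111538120, plus strand: cgacgtgcatgcgagccaatgacaagagaa
Eif5b, chr1:37998000-37998029, plus strand: ctgggttcccacctggccggcggctctact
A tract was marked in all 3 windows of the lower genes and in that of Eif4g1 among the 5 higher genes, where 34.4% of all genes hold one. Eif4g2, Eif3e and Eif4e3, also at least 1.5-fold higher in double positive, had no window, so the higher group is incomplete. That of Eif4b begins 10 bases after the first base and falls outside the limit of 5 bases. These genes were picked by their ratios, so the split is no more than a description. Whether any marked stretch, that of Eef1a1 included, lies at the start of the message in these cells was not tested.

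Within eIF4F and its partners the ratios spread more widely than in any other role, from −1.21 to 1.14 among 9 genes in double positive over EGFP only. Eif4b encodes the RNA-binding cofactor that stimulates the eIF4A helicase. Its spot medians were 1118 and 967 in the EGFP-only channels of the first and second array, 344 in double positive and 371 in tdTomato only. Before normalization both Cy3 populations lay below both EGFP-only measurements, but so did those of Eif1a, whose log2 ratio in double positive was 0.14. The log2 ratio was −1.21 (2.31-fold lower) in double positive and −0.97 (1.96-fold lower) in tdTomato only, and it ran from −1.72 to −1.21 and from −1.45 to −0.97 over the settings. The settings with a lower offset, without loess or with other scaling took it past 2-fold in tdTomato only as well. Eif4b was the farthest below EGFP only of the members that are not elongation factors, on both arrays.

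The scaffold genes lay on the other side. Eif4g2 encodes the relative of eIF4G that lacks the eIF4E-binding part and serves cap-independent initiation. Its spot medians were 1830 and 1804 in EGFP only, 2361 in double positive and 1934 in tdTomato only. Both Cy3 values lay above both EGFP-only values even before normalization, by little in tdTomato only. The log2 ratios were 1.14 (2.20-fold higher) and 0.73 (1.66-fold higher), above 0 in all 9 settings on both arrays, although median centring lowered them to 0.43 and 0.10, and the authors' deposited ratios held 0.86 and 0.40. Eif4g1, the main scaffold, had spot medians of 628 and 611 in EGFP only, 693 in double positive and 599 in tdTomato only, with log2 ratios of 0.71 and 0.43. Its direction held in every setting in double positive, and in tdTomato only median centring turned it to −0.05. The third scaffold gene, Eif4g3, had spot medians between 76.7 and 89.8 in the 4 channels, close to the background limits, and log2 ratios of 0.07 and 0.02.

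The 2 helicase genes, whose protein products are nearly alike, differed from each other. Eif4a1 had spot medians of 9326 and 10332 in EGFP only, 5150 in double positive and 5008 in tdTomato only. Its log2 ratios were 0.14 and −0.20, and the first was −0.80 with median centring, −0.12 with quantile normalization and −0.38 in the authors' deposited ratios. Eif4a2 had spot medians of 5293 and 5001 in EGFP only, 4328 in double positive and 4366 in tdTomato only, with log2 ratios of 0.63 and 0.58 that median centring turned to −0.23 and −0.19. The difference between the 2 genes did not turn with the setting. Eif4a2 was higher than Eif4a1, relative to EGFP only, by 0.50 in double positive (0.45 to 0.57 over 9 settings) and by 0.78 in tdTomato only (0.75 to 0.86). Between the arrays the EGFP-only level differed by 0.24 for Eif4a1 and by −0.05 for Eif4a2. Whether the gap was larger in tdTomato only was therefore not settled.

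The genes of the cap-binding proteins themselves lay nearer to the EGFP-only level. Eif4e had spot medians of 686 and 555 in EGFP only, 398 in double positive and 319 in tdTomato only, and log2 ratios of −0.29 and −0.43. Eif4e2, whose product binds the cap and is known for repressing translation, had 1116 and 941 in EGFP only, 594 in double positive and 574 in tdTomato only, with −0.33 and −0.24. Both genes lay below EGFP only in all 9 settings on both arrays. After loess they were within 1.5-fold of it, but with median centring Eif4e had −0.78 and −0.87 and Eif4e2 −0.89 and −0.75. Eif4b and Eif4e2 gave similar EGFP-only spot medians. The brightness-dependent step shifted them by similar amounts, 0.52 and 0.56 in double positive and 0.48 and 0.50 in tdTomato only. Between them the log2 ratio of Eif4b was lower by 0.88 in double positive and by 0.73 in tdTomato only, where the settings ran from −0.99 to −0.84 and from −0.82 to −0.71. Eif4e3 had spot medians of 77.9 and 77.4 in EGFP only, just over the limits of 74.1 and 75.7, with 122 in double positive and 107 in tdTomato only. Its log2 ratio of 0.75 in double positive was 2.68 in the authors' deposited ratios, so only its direction can be read.

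After loess, the inhibitors of eIF4E were near the EGFP-only level. Eif4ebp1 had spot medians of 125 and 126 in EGFP only, 115 in double positive and 117 in tdTomato only, with log2 ratios of −0.05 and −0.12. Eif4ebp2 had 269 and 273 in EGFP only, 224 in double positive and 190 in tdTomato only, with log2 ratios of 0.08 and −0.30. The first value of Eif4ebp2 was −0.29 with median centring. The second was −0.64 with median centring, −0.58 in the authors' deposited ratios and below 0 in every setting. Eif4enif1, which carries eIF4E between nucleus and cytoplasm, had −0.16 and −0.21.

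**Figure D3:**
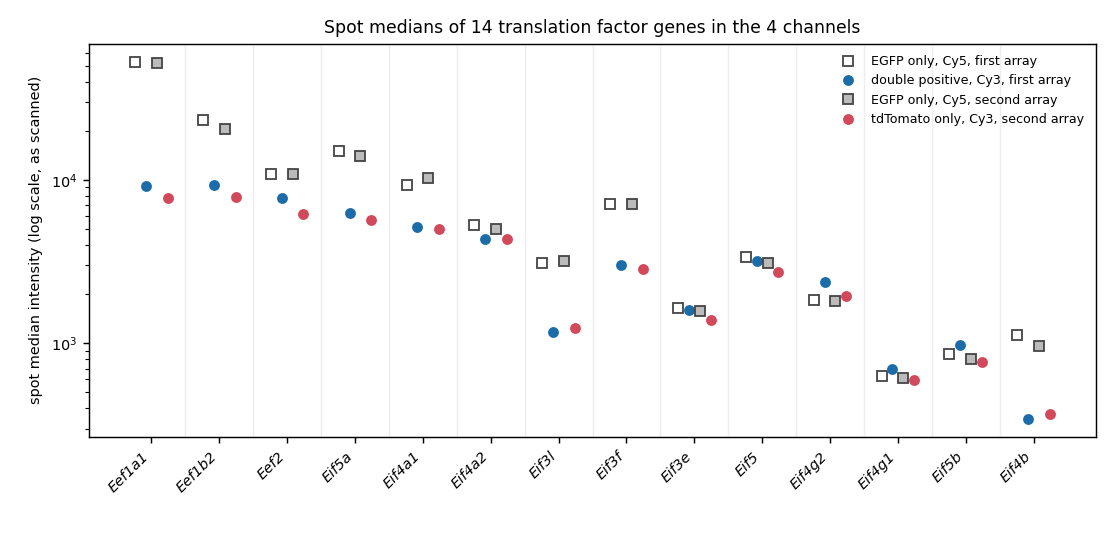
Spot median intensities as scanned, on a log scale, of 14 translation factor genes in the EGFP-only (squares), double-positive (blue) and tdTomato-only (red) channels. The EGFP-only squares of both arrays lie close together for each gene; for Eef1a1 they stand at 53126 and 51725 with the other channels at 9235 and 7703, whereas for Eif4g2 the coloured points lie above the squares.

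The subunits of eIF3, the large scaffold on the small ribosomal subunit, did not lie together. Of 11 subunits, 7 lay below 0 in double positive over EGFP only and 9 in tdTomato only, with medians of −0.11 and −0.20 that median centring lowered to −0.88 and −0.89. Eif3l had spot medians of 3098 and 3199 in EGFP only, 1179 in double positive and 1249 in tdTomato only. Before normalization both Cy3 populations were below both EGFP-only values, but so were those of Eif4a1, whose log2 ratio in double positive was 0.14. The log2 ratios of Eif3l were −0.66 (1.58-fold lower) and −0.73 (1.66-fold lower) and kept their sign in all 9 settings. Eif3f followed with spot medians of 7084 and 7123 in EGFP only, 3017 in double positive and 2854 in tdTomato only, and log2 ratios of −0.32 and −0.55. At the other end Eif3e had spot medians of 1635 and 1566 in EGFP only, 1591 in double positive and 1391 in tdTomato only, and log2 ratios of 0.68 and 0.42, where the second turned to −0.18 with median centring. Eif3e and Eif3l lay apart by 1.34 in double positive and by 1.15 in tdTomato only, and by 1.34 to 1.41 and 1.15 to 1.23 over the settings.

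Eif3j1, the loosely bound subunit, was past 1.5-fold in double positive as well, at 0.69, and had 0.58 in tdTomato only. It was the only member with several probes, and these disagreed. In double positive they gave 0.32, 1.24 and 0.51, and in tdTomato only 0.16, 1.15 and 0.45. All 3 lay above 0, but the mean rests largely on 1 probe, and that probe also had the most unequal EGFP-only spot medians, 280 and 199. The mouse genome holds a near-identical gene, Eif3j2, and whether the probes also bind its message was not tested. The other 7 subunits, Eif3a, Eif3b, Eif3c, Eif3d, Eif3h, Eif3i and Eif3k, lay between −0.25 and 0.19 in double positive and between −0.43 and −0.02 in tdTomato only. Of these, Eif3a, Eif3d, Eif3h, Eif3i and Eif3k were below 0 in every setting on both arrays.

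Among the factors of start codon selection the GTPase-activating factor and the subunit-joining factor lay above EGFP only. Eif5, whose product makes eIF2 hydrolyse GTP at the start codon, had spot medians of 3354 and 3086 in EGFP only, 3193 in double positive and 2730 in tdTomato only. The Cy3 values before normalization were within the EGFP-only range or under it, and the loess-normalized log2 ratios were 0.78 (1.72-fold higher) and 0.52, with −0.01 and −0.18 under median centring. Eif5b, the GTPase that joins the ribosomal subunits, had 859 and 798 in EGFP only, 979 in double positive and 769 in tdTomato only, with log2 ratios of 0.81 (1.75-fold higher) and 0.44. It was above 0 in every setting in double positive and turned to −0.07 in tdTomato only with median centring.

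The small scanning factors were near 0. Eif1a had spot medians of 906 and 1118 in EGFP only, 667 in double positive and 767 in tdTomato only, with log2 ratios of 0.14 and −0.03, the first −0.41 with median centring. Its EGFP-only level itself differed by 0.33 between the arrays, more than either ratio. Eif1b had 1019 and 1091 in EGFP only, 691 in double positive and 688 in tdTomato only, with 0.03 and −0.17, and the first was −0.53 with median centring, −0.10 with quantile normalization and −0.15 in the authors' deposited ratios.

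The eIF2 genes lay below EGFP only. Eif2s3x, the X-linked gene of the subunit that binds GTP and initiator tRNA, had spot medians of 614 and 585 in EGFP only, 305 in double positive and 311 in tdTomato only. Its log2 ratios of −0.57 (1.48-fold lower) and −0.55 (1.46-fold lower) were below 0 in all 9 settings. They passed 1.5-fold on both arrays with a normexp offset of 0, the blank mean subtracted, median centring, quantile normalization and in the authors' deposited ratios, where they were −0.78 and −0.85. Eif2s1, the subunit phosphorylated under stress, was dim, with spot medians of 95.7 and 101 in EGFP only, 87.0 in double positive and 95.0 in tdTomato only, and log2 ratios of −0.30 and −0.25, which were −1.08 and −0.65 in the authors' deposited ratios. Eif2a, an alternative carrier of initiator tRNA, had −0.11 and −0.36. All 3 genes kept their sign in every setting on both arrays. The 5 subunits of eIF2B, which recharges eIF2 with GTP, lay between −0.41 and 0.19 in double positive and between −0.27 and 0.09 in tdTomato only. Of these only Eif2b2 and Eif2b3 held 1 direction, below 0, in every setting on both arrays.

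Elongation held the member farthest from EGFP only. Eef1a1, the widely expressed form of eEF1A, had spot medians of 53126 and 51725 in EGFP only, 9235 in double positive and 7703 in tdTomato only. Neither EGFP-only spot reached the scanner's ceiling of 65535. The log2 ratio was −1.31 (2.48-fold lower) in double positive and −1.73 (3.33-fold lower) in tdTomato only, and −2.05 and −2.46 in the authors' deposited ratios. Over the settings it ran from −2.47 to −1.13 and from −2.74 to −1.48, lower than EGFP only by at least 2-fold in each. The mouse genome holds processed copies of Eef1a1, and whether its probe also binds their transcripts was not tested. Eef1a2, the form of muscle and neurons, had spot medians between 101 and 110 in the 4 channels and log2 ratios of −0.04 and 0.07, the second −0.01 with median centring.

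The exchange factor gene Eef1b2 had spot medians of 23164 and 20399 in EGFP only, 9308 in double positive and 7909 in tdTomato only. Its log2 ratios were −0.18 and −0.43 after loess and −0.84 and −1.07 in the authors' deposited ratios, below 0 in every setting. Relative to EGFP only, Eef1a1 lay below Eef1b2 by 1.13 in double positive and 1.31 in tdTomato only. Eef1d, another part of the exchange complex, was dim, with spot medians between 93.3 and 105 and log2 ratios of −0.01 and 0.07, the first 0.09 in the authors' deposited ratios. Eef1e1, which despite its name belongs to the tRNA synthetase complex, had −0.34 and −0.43, below 0 in every setting.

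Eef2 differed from Eef1a1. Its spot medians were 10862 and 10889 in EGFP only, 7726 in double positive and 6198 in tdTomato only. The log2 ratios after loess were 0.56 and 0.06, but −0.43 and −0.81 with median centring and −0.01 and −0.52 in the authors' deposited ratios, so its direction against EGFP only was not settled. Relative to EGFP only, Eef2 lay above Eef1a1 by 1.86 in double positive and by 1.79 in tdTomato only, and by at least 1.81 and 1.70 in every setting. Eef2k, the kinase that inactivates eEF2, had log2 ratios of 0.14 and −0.03, the first −0.11 with median centring.

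Eif5a encodes the hypusine-bearing factor that helps ribosomes past difficult peptide bonds. Its spot medians were 15022 and 14084 in EGFP only, 6300 in double positive and 5692 in tdTomato only. The log2 ratios were −0.20 and −0.43, below 0 in every setting and −1.20 and −1.30 with median centring. The spot medians of Eif5a2 were 76.5 and 74.6 in EGFP only, 85.4 in double positive and 87.4 in tdTomato only. In the second array its EGFP-only spot was not well above background, and in the first its log2 ratio was −0.03, and 0.36 in the authors' deposited ratios.

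The third comparison set tdTomato only against double positive as the difference between the log2 ratios of both arrays, so that the reference and any slope common to them cancel. The curve changed it by −0.15 to 0.02 over the members. Of 43 members, 34 lay below 0 (54.3% of 11311 genes), with a median of −0.16 beside −0.02 over all genes. None was 1.5-fold lower (1.80% of all genes) or 1.5-fold higher (2.67%), nor 2-fold lower (0.274%) or higher (0.813%). In every setting 31 members were below 0 and 7 above, and 5 changed sign. The median was −0.09 beside 0.00 with median centring, and −0.22 beside −0.08 in the authors' deposited ratios.

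The 3 lowest members after loess were Eef2, Eef1a1 and Eif4g2. Eef2 had −0.50 (1.42-fold lower in tdTomato only, −0.51 to −0.38 over the settings), Eef1a1 −0.43 (−0.43 to −0.28) and Eif4g2 −0.41 (−0.46 to −0.32). Eif4ebp2 had −0.38, and it passed 1.5-fold in the authors' deposited ratios, at −0.61, where 2 members were that much lower (8.04% of all genes). The other was the dim Eif4e3, at −0.70, and Eef1a1 was then not among the 3 lowest. The highest were Eif4b at 0.24, Eif2b2 at 0.14 and Eef1a2 at 0.11, all above 0 in every setting. The EGFP-only level of Eif4b itself differed by −0.19 between the arrays, so its order between the sorted populations was not settled. Other members differed by more in that channel, among them Eif1a (0.33), Eif4e (−0.27), Eif3a (0.25) and Eif4a1 (0.24), and the same limit holds for them. The differences of single genes are set against a technical SD of 0.13 for 1 channel, and no replicate error is known for them.

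**Figure D4:**
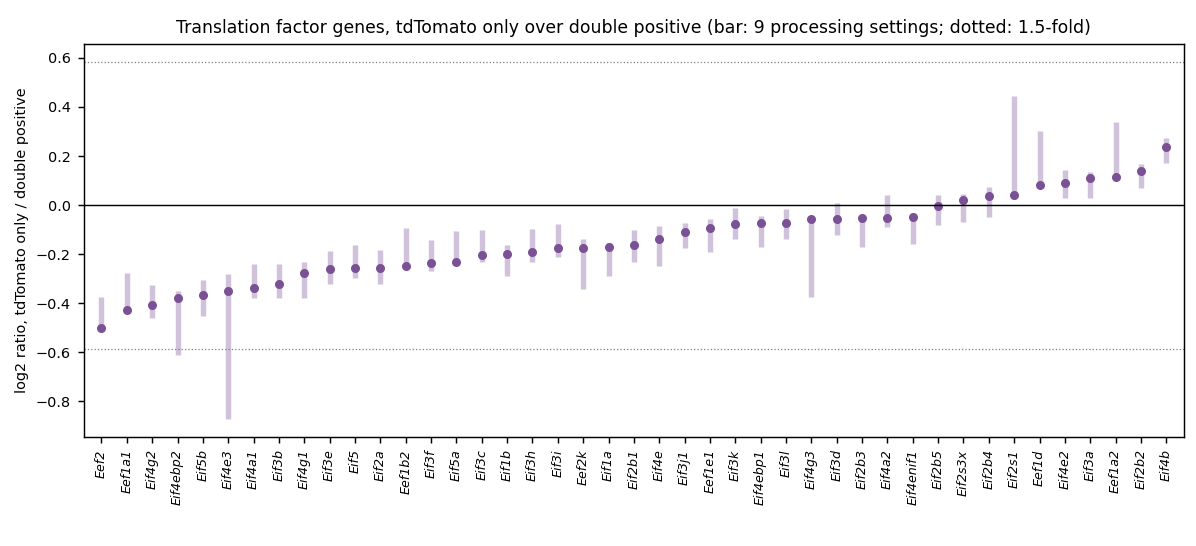
Log2 ratio of tdTomato only over double positive for the 43 translation factor genes measured in all 4 channels, in order; points are loess-normalized, bars run from the lowest to the highest of 9 processing settings, dotted lines mark 1.5-fold. The points run from −0.50 for Eef2 to 0.24 for Eif4b, and 34 of them lie below 0.

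The factor genes listed under other symbols on the arrays gave a mixed picture. Eif4h, whose product stimulates eIF4A as that of Eif4b does, had spot medians of 769 and 748 in EGFP only, 267 in double positive and 405 in tdTomato only. Its log2 ratios were −1.10 (2.15-fold lower) and −0.47, and in tdTomato only over double positive it was 1.55-fold higher (0.64, and 0.63 to 0.76 over the settings). The eIF3 subunit gene Eif3m had −0.70 and −0.50, and Eif6, which keeps the large ribosomal subunit free, had −0.14 and 0.33, the second −0.30 with median centring and −0.01 in the authors' deposited ratios. With these 10 genes added, 5 of 54 genes in place of 3 of 44 were 1.5-fold lower in double positive, and the median of tdTomato only over double positive was −0.08 in place of −0.16. Of the Argonaute genes, Ago1, Ago2 and Ago4 had log2 ratios of −0.14, −0.25 and 0.20 in double positive, and Ago3 was above background in the double-positive channel only.

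Other translation genes were examined in lists by function, each described by its count and median. Of the 3 measured eIF2 kinases, which slow initiation under stress, 1 was past 2-fold. Eif2ak3, the kinase PERK of the endoplasmic reticulum, was 3.17-fold higher in double positive and 2.82-fold higher in tdTomato only; Eif2ak4 had log2 ratios of 0.67 and 0.57, and Eif2ak2 0.02 and −0.03. Genes of the response to eIF2 phosphorylation had a median of 0.83 in double positive, with 5 of 14 at least 2-fold higher (5.10% of all genes) and 0 lower, and of 0.46 in tdTomato only, with 6 of 14 higher (6.15%). With median centring these medians were 0.18 and 0.12, and 5 of 14 lay below 0 after loess on each array. Chac1 had 2.84 and 2.16, and Ddit3, the transcription factor CHOP, 1.65 and 2.03.

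The 58 measured cytosolic ribosomal protein genes, whose messages are terminal oligopyrimidine messages as that of Eef1a1 is, had medians of −0.43 in double positive and −0.59 in tdTomato only. Of these, 50 and 52 lay below 0 (51.1% and 51.8% of all genes). At least 2-fold lower were 1 and 6 (0.340% and 1.19% of all genes), and none was 2-fold higher (5.10% and 6.15%). Rps3 was lowest, at −1.38 and −1.62. Ribosome biogenesis genes had a median of −0.11 in double positive and −0.46 in tdTomato only. In the latter 18 of 20 lay below 0 (51.8% of all genes), and Myc (−1.08) and Npm1 (−1.04) were 2-fold lower (1.19%). In tdTomato only over double positive, 19 of 20 of these genes and 51 of 58 ribosomal protein genes lay below 0, beside 34 of 43 translation factors and 54.3% of all genes. The medians of both lists were below 0 in all 9 settings in each comparison. Beside these values, 4 of 8 measured stem cell markers were at least 2-fold lower in tdTomato only than in EGFP only (1.19% of all genes). In double positive 1 of 9 was (0.340%). The part of the cell mixture in the values of both lists was not tested.

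In the remaining lists few genes were 2-fold from EGFP only. The mTORC1 genes had medians of 0.14 and 0.08 over 17 genes, turned to −0.30 and −0.32 by median centring, and none was 2-fold from EGFP only. Partners at the cap and the poly(A) tail had medians of 0.07 and −0.11 over 17 genes, also lowered by median centring, to −0.42 and −0.61. Among them Dhx36, a helicase that unwinds RNA quadruplexes, had 1.83 and 1.07. The poly(A)-binding protein genes Pabpc4 and Pabpc1 were lower in tdTomato only than in double positive, at −0.79 and −0.71. Termination and rescue factors had medians of 0.48 and 0.41 over 6 genes, with 0.01 and −0.06 under median centring, and Pelo at 0.76 and 0.54. Cytosolic tRNA synthetases had 0.25 and 0.05 over 18 genes, with −0.36 and −0.53 under median centring, and Wars was 2.17-fold higher in tdTomato only. Enzymes of hypusine and diphthamide had −0.15 and −0.02 over 9 genes. Mitochondrial translation factors had −0.15 and −0.27 over 10 genes, with Tsfm lowest at −0.87 and −0.82.

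**Figure D5:**
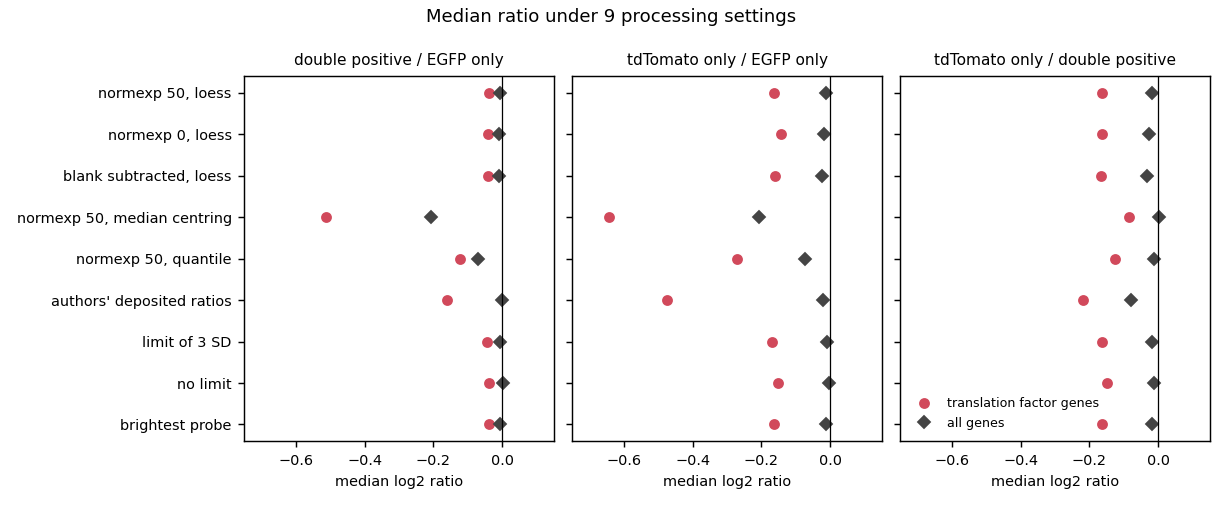
Median log2 ratio of the translation factor genes (red) and of all genes measured (grey diamonds) in the 3 comparisons under 9 processing settings. The members' median lies below that of all genes in each row; in double positive over EGFP only it runs from −0.51 to −0.04, and in tdTomato only over double positive from −0.22 to −0.09.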

How the data were processed

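RNA of 3 sorted populations was compared on 2 two-colour arrays, 1 for each comparison with EGFP only, with 1 biological replicate per population. Each array had 27456 spots. The authors deposited the median intensity of each spot in both channels, per the file headers, and, per the labels, log2 ratios with the Cy3 population as the numerator. The sources used here do not say how these were made. Subtracting the trimmed mean of the blank spots and centring gave the authors' deposited log2 ratios within 0.02 for 100% and 99.99% of probes, and their medians were 0. For the array's probes, a genome build was not given in the sources used here.

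Intensities were corrected with normexp (offset 50, no local background) and loess-normalized within each array in limma 3.58.1 under R 4.3.3, with control and quality-marked spots at weight 0. A probe counted as above background when it was brighter than the blanks' mean by 2 SD, that is 74.1 and 82.2 in EGFP only and double positive on the first array and 75.7 and 85.4 in EGFP only and tdTomato only on the second. No translation factor probe was saturated. The number of arrays limits the precision. Probes of a gene were averaged. Symbols were updated through RefSeq: 12622 were current, 3947 updated, 59 ambiguous and 3 unmatched.

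With 1 array per comparison, genes were counted by size, at 2-fold and at 1.5-fold, a log2 ratio of 0.585. The third comparison is the difference of both log2 ratios over probes that passed in all 4 channels. The steps were tested on simulated data. The members, lists and alternatives were chosen with earlier results of these data known. Named in full are members past 2-fold, the 3 highest and 3 lowest per comparison and sets of paralogs, and up to 3 genes per list. Values of the EGFP-only channels were compared after loess and Aquantile. The 8 alternatives changed the background correction, the normalization, the limit on dim probes or the choice of probe, or took the authors' deposited ratios. Adding the genes under older names, or the Argonautes, was chosen after seeing the data.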

Additional observations from a re-analysis of the deposited data

How the results depend on the processing

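No paired analysis was possible because each population has 1 replicate. A limit of 3 SD, no limit, or the brightest probe of a gene moved none of the members' counts by over 1.5 times. In double positive over EGFP only, 2 members were at least 2-fold higher with a normexp offset of 0 and 2 with the blank mean subtracted, and 0 with median centring and 0 with quantile normalization. Of all 11774 genes, 601 were that much higher in the reported values, and 1044, 1173, 364 and 515 under these settings. At least 1.5-fold lower were 5 with an offset of 0, 5 with the blank mean subtracted, 19 with median centring, 6 with quantile normalization, 10 in the authors' deposited ratios and 5 with the genes under older names. All genes moved as well, from 485 of 11774 to 1318, 1639, 2626, 877 and, in the deposited ratios, 1872 of 12429. At least 1.5-fold higher were 1 with median centring and 5 with quantile normalization. Of all genes, 1262 were that much higher in the reported values, and 647 and 992 under these settings. Median centring gave 8 members at least 2-fold lower (740 of all 11774 genes) and a median of −0.51. It turned Eif4a2 to −0.23 and Eif5 to −0.014.

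In tdTomato only over EGFP only, the members' median was −0.64 with median centring and −0.48 in the authors' deposited ratios. At least 2-fold lower were 2 members with an offset of 0, 2 with the blank mean subtracted, 9 with median centring, 2 with quantile normalization and 6 in the authors' deposited ratios. Of all 11381 genes, 135 were that much lower in the reported values, and 434, 593, 850, 247 and, of 12489, 864 under these settings. At least 2-fold higher was 1 member with an offset of 0, 1 with the blank mean subtracted and 1 in the authors' deposited ratios. Of all genes, 700 were that much higher in the reported values, and 1132, 1225 and, of 12489, 1595 under these settings. At least 1.5-fold lower were 5, 5, 23, 7 and 16 members under the 5 settings named for the 2-fold lower counts. Of all genes, 758 of 11381 were that much lower in the reported values, and 1625, 1912, 2679, 1168 and, of 12489, 2503 under these settings. At least 1.5-fold higher were 5, 5, 0, 0 and 3 members under the same settings. Of all genes, 1417 were that much higher in the reported values, and 2125, 2246, 729, 1126 and, of 12489, 2806 under these settings. In tdTomato only over double positive, 1.5-fold lower were 1 member with an offset of 0, 1 with the blank mean subtracted and 2 in the authors' deposited ratios. Of all 11311 genes, 204 were that much lower in the reported values, and 594, 791 and, of 12243, 984 under these settings. With the genes under older names 1 gene was 1.5-fold higher, as were 302 of all genes in the reported values. Median centring differs from the reported values by the absence of the curve alone; for the other settings the cause was not tested.

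Adding the Argonautes moved none of these counts past 1.5 times. The spread of the EGFP-only channel over the members was 0.12 with quantile normalization, beside 0.13. Signals near the blank limits bound what can be read of the dim genes Eif4e3, Eif4g3, Eif5a2, Eif2s1, Eef1a2 and Eef1d.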
